A study of Homo sapiens with 6 samples.

Results

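Aminoacyl-tRNA synthetases are the enzymes that join each amino acid to its transfer RNA, and their transcripts were followed here in RL cells grown in 2 culture forms. The members were 38 named genes: 19 cytosolic enzymes, 16 mitochondrial enzymes and 3 proteins that scaffold a complex of cytosolic enzymes. A member was measured where a probe set of the array named its symbol, or the older symbol without the final digit, and no other gene. By that rule 33 members were found on 70 probe sets, out of 19775 genes with such a probe set, and all 33 were among the 13765 genes tested. They were 17 cytosolic enzymes, 15 mitochondrial enzymes and the scaffold protein AIMP1. The probe sets of MARS1, QARS1 and TARS2 also name another gene and were not used, and the rule found no probe set for AIMP2 or EEF1E1, so these 5 members were not analysed here.

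Charging of transfer RNA takes 2 steps, in which the amino acid is first activated with ATP and then moved onto the end of its transfer RNA. The cytosol and the mitochondria have separate sets of these enzymes, almost all encoded by separate nuclear genes, although GARS1 and KARS1 each give rise to both forms. The enzymes fall into class I and class II, which have unrelated catalytic folds. In animal cells several cytosolic enzymes are held in one complex with the scaffold proteins AIMP1, AIMP2 and EEF1E1. When amino acids run short, uncharged transfer RNA activates the kinase GCN2, and the transcription factor ATF4 then raises the genes of many cytosolic synthetases along with those of amino acid synthesis and import.

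RL is an established human B lymphoid line, and all 6 samples carried the label t(14,18)+, the translocation typical of follicular lymphoma, and had received no treatment. The MALC group held 3 samples of multicellular aggregates collected at 10 days of culture, and the suspension group held 3 samples taken in exponential growth. The groups thus differ in both culture form and growth phase, which cannot be told apart. Nothing in the labels says that the samples of a group were independent cultures. The p-values therefore reflect how far these samples spread, and that spread may be technical.

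Each sample was read on 1 Affymetrix U133 Plus 2.0 array, and array medians lay between 80.75 and 81.67 signal units. The number of arrays limits the precision. The samples numbered 2 and 3 were nearly alike in each group (Pearson r across probe sets of 0.9984 in MALC and 0.9985 in suspension), and the samples numbered 1 stood a little apart (r of 0.9949 to 0.9955). MALC 1 was also nearer to the suspension arrays (r of 0.9874 to 0.9888) than MALC 2 and 3 were (0.9768 to 0.9815). Of 6 B cell markers 5 were measured (MS4A1, CD79A, CD79B, PAX5 and CD22), with summed signals of 27829 to 31909 in MALC and 28004 to 33433 in suspension. Markers of other cell types, whose probe sets cannot be set against those of B cells, had sums that overlapped between the groups (T cell 266.5 to 276.1 and 269.6 to 290.8, myeloid 239 to 261.4 and 236.7 to 268.2, epithelial 239.8 to 275.5 and 248.9 to 253.8). The 4 stromal markers summed to 426.4 to 463.6 in MALC, against 494 to 921.4 in suspension. The highest sum came from suspension 2, where COL1A2 read 346.6 and COL3A1 173.8, against 126.9 and 32.71 in suspension 3 and 54.08 and 25.71 in suspension 1. The ratio of 3′ to 5′ signal, a measure of RNA integrity, of GAPDH lay at 1.01 to 1.02 in MALC against 1.04 to 1.06 in suspension and overlapped between the groups for ACTB (1.22 to 1.33 and 1.31 to 1.54). The part of these differences in the results was not tested. In bulk RNA, fewer cells with a transcript and less of it per cell cannot be told apart.

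In MALC, 16 of the 33 measured members fell, 3 rose and 14 did not pass the test. The falls were spread over both compartments, with 8 of 17 cytosolic and 8 of 15 mitochondrial enzymes lower. The 3 rises were AARS1 for alanine in the cytosol and PARS2 and WARS2 for proline and tryptophan in the mitochondria. Calls are from limma with Benjamini-Hochberg adjustment over all 13765 genes at 0.05. Over all genes tested 42.7% changed, 23.7% lower and 19% higher. The median log2 change, MALC minus suspension on the log2(signal + 16) scale, was −0.22 over the members, −0.19 over the cytosolic and −0.29 over the mitochondrial enzymes, beside −0.06 over all genes tested. Of the 33 members 25 had a negative change. The groups did not overlap for 19 members, the same 19 that passed the test, against 56.9% of all genes tested. Class I enzymes gave 9 falls among 16 and class II enzymes 7 among 15, with medians of −0.26 and −0.22. EPRS1, a fused enzyme that belongs to both classes, was counted in neither.

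**Figure D1:**
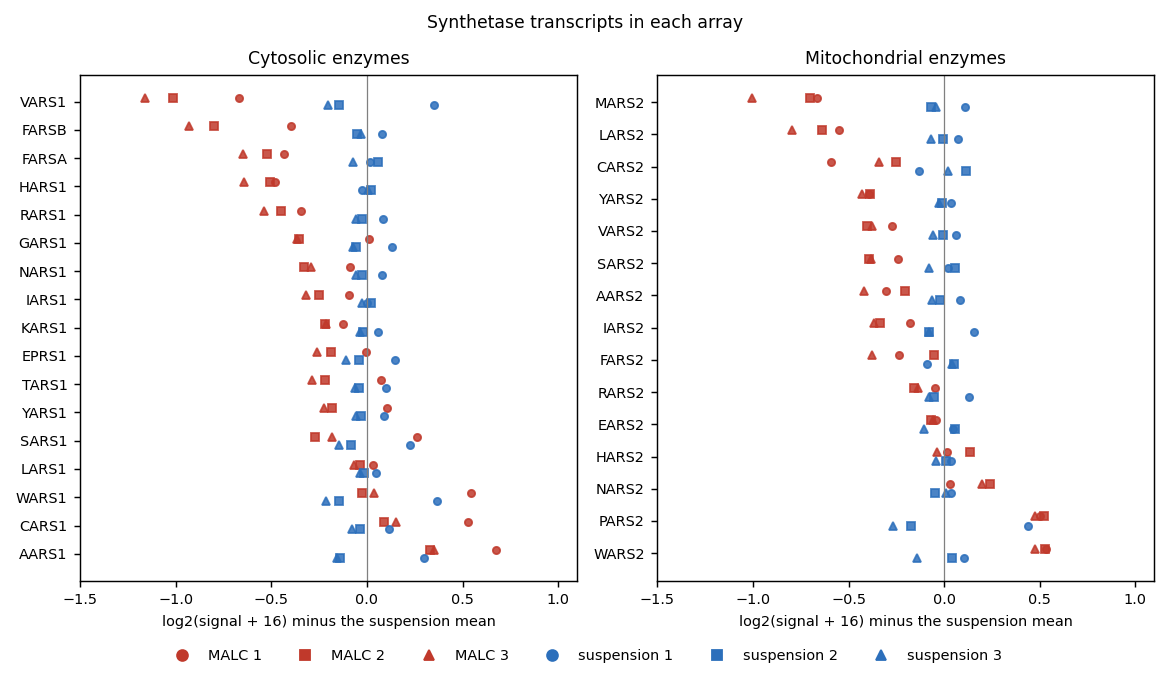
Each point is the log2(signal + 16) of 1 array minus the mean of the 3 suspension arrays for that gene, with red for MALC, blue for suspension and the marker shape for the sample number. VARS1 lies lowest in MALC among cytosolic enzymes (change −0.95) and MARS2 among mitochondrial ones (−0.79), whereas for WARS2 and AARS1 the MALC arrays lie above all suspension arrays.

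VARS1, which charges valine, had the largest cytosolic fall on the brightest probe sets. Its signal was 435.3, 339.3 and 305.3 in MALC 1, 2 and 3 and 899.4, 633.4 and 607.3 in suspension 1, 2 and 3. Every MALC array was below every suspension array, and sample 1 was the highest of its group in both. The means were 360 ± 67.4 and 713.4 ± 162 (SD, n = 3 each), a 1.93-fold fall (log2 change −0.95, SE 0.18, adjusted p = 0.00425). A second, dimmer VARS1 probe set read 233.9, 206.3 and 216.4 in MALC and 279.7, 246.5 and 251.7 in suspension, a change of −0.23 that missed the threshold (adjusted p = 0.0527 over all probe sets). With the mean of its probe sets VARS1 fell by 0.59, less than FARSB did (0.74).

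FARSA and FARSB encode the α and β subunits of the cytosolic phenylalanine enzyme, and both fell. FARSB had signals of 2887, 2184 and 1993 in MALC and 4034, 3678 and 3736 in suspension, a 1.64-fold fall (log2 change −0.71, SE 0.13, adjusted p = 0.00399). FARSA had 920.1, 863.8 and 791.9 against 1262, 1302 and 1186, a 1.45-fold fall (−0.54, SE 0.08, adjusted p = 0.00172). For neither subunit did the groups overlap.

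HARS1, the histidine enzyme, was even within groups, at 1315, 1293 and 1175 in MALC and 1811, 1870 and 1854 in suspension. It fell 1.46-fold (log2 change −0.54, SE 0.07, adjusted p = 0.000916). Signals of RARS1, the arginine enzyme of the multi-enzyme complex, were 2443, 2272 and 2133 in MALC and 3291, 3050 and 2977 in suspension (1.36-fold lower, log2 change −0.44, SE 0.07, adjusted p = 0.00255). The calls of VARS1, FARSB, FARSA, HARS1 and RARS1 held in every alternative in which each gene was measured, and these were the 5 largest falls among cytosolic enzymes on the brightest probe sets.

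Smaller falls were seen for KARS1, NARS1 and IARS1. KARS1, the lysine enzyme, had 12737, 11936 and 11971 in MALC and 14461, 13715 and 13583 in suspension (1.14-fold lower, log2 change −0.19, SE 0.04, adjusted p = 0.0103), and it missed the threshold without MALC 2 (adjusted p = 0.0508). NARS1, the asparagine enzyme, had 8209, 6942 and 7122 against 9219, 8577 and 8381 (1.18-fold lower, −0.24, SE 0.07, adjusted p = 0.033). The NARS1 groups were separated by a narrow margin, from 8209 to 8381, and every single array other than MALC 1 was needed for its call (adjusted p of 0.123 without MALC 2, 0.105 without MALC 3, 0.0908 without suspension 1, 0.0725 without suspension 2 and 0.0554 without suspension 3). IARS1, the isoleucine enzyme, had 9599, 8603 and 8222 against 10263, 10421 and 10091 (1.17-fold lower, −0.22, SE 0.06, adjusted p = 0.0203). It did not pass without MALC 2 (adjusted p = 0.0789), MALC 3 (0.067), suspension 2 (0.0686) or suspension 3 (0.0507).

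AARS1, which charges alanine, was the cytosolic enzyme that rose. Its signal was 3116, 2448 and 2489 in MALC and 2398, 1764 and 1743 in suspension, so that MALC 2 lay just above suspension 1. The means were 2684 ± 374 and 1968 ± 372 (SD, n = 3 each), a 1.37-fold rise (log2 change 0.45, SE 0.15, adjusted p = 0.039). The call was lost without MALC 1 (adjusted p = 0.078), MALC 2 (0.0648), MALC 3 (0.067), suspension 2 (0.118) or suspension 3 (0.122). Within same-numbered samples the AARS1 difference was 0.38, 0.47 and 0.51.

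The other 8 cytosolic enzymes did not pass, and for each of them the groups overlapped. GARS1, the glycine enzyme, had 15064, 11685 and 11604 in MALC and 16389, 14380 and 14217 in suspension (log2 change −0.24, SE 0.11, adjusted p = 0.108), with MALC 1 above suspension 2 and 3. EPRS1, a fused enzyme for glutamate and proline, had 5986, 5267 and 5007 against 6646, 5837 and 5563 (−0.15, SE 0.09, adjusted p = 0.207). WARS1, the tryptophan enzyme, had 4406, 2969 and 3095 against 3889, 2724 and 2595 (0.19, SE 0.19, adjusted p = 0.465). CARS1, the cysteine enzyme, had 5097, 3752 and 3915 against 3822, 3434 and 3338 (0.26, SE 0.12, adjusted p = 0.117).

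These 4 genes passed once the sample number was taken as a block: GARS1 and EPRS1 as lower (adjusted p = 0.00637 and 0.0232) and WARS1 and CARS1 as higher (0.0274 and 0.0206). With that block 10 of 17 cytosolic enzymes fell and 3 rose, beside 25.8% lower and 20.7% higher over all genes tested (46.5% in either direction). EPRS1 differed by −0.15 in each of the same-numbered pairs, CARS1 by 0.41, 0.13 and 0.23, WARS1 by 0.18, 0.12 and 0.25, and GARS1 by −0.12, −0.30 and −0.29.

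TARS1, the threonine enzyme, had 2743, 2237 and 2136 in MALC and 2798, 2537 and 2502 in suspension (log2 change −0.15, SE 0.10, adjusted p = 0.281). YARS1, the tyrosine enzyme, had 5002, 4093 and 3968 against 4931, 4542 and 4468 (−0.10, SE 0.09, adjusted p = 0.414). SARS1, the serine enzyme, had 3324, 2290 and 2435 against 3241, 2616 and 2503 (−0.06, SE 0.15, adjusted p = 0.76). In each of these 3 genes MALC 1 was the highest of its group. LARS1, the leucine enzyme, which also takes part in leucine sensing, had 2666, 2543 and 2481 against 2694, 2579 and 2542, with a 95% confidence interval of the change from −0.16 to 0.11. Without MALC 1, GARS1, TARS1 and YARS1 passed as lower, with changes of −0.36, −0.25 and −0.20 (adjusted p = 0.00278, 0.0177 and 0.0229), and cytosolic falls numbered 11 in place of 8, beside 26.4% lower over all genes in that fit. Without MALC 2 they numbered 5, beside 15.3%.

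**Figure D2:**
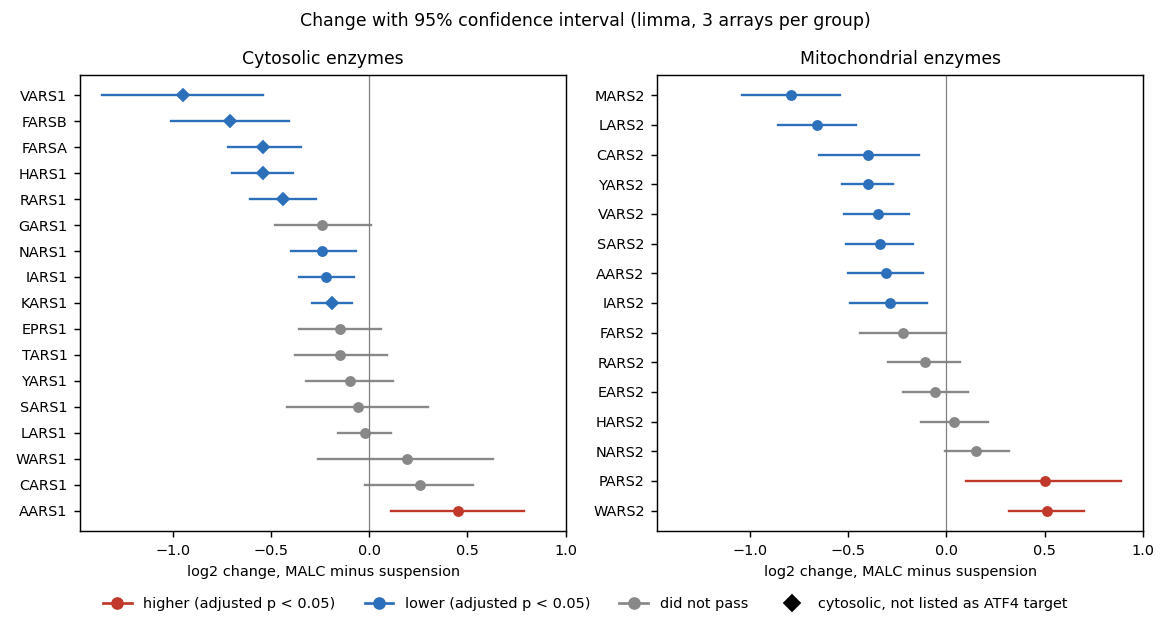
Points give the log2 change of each enzyme, MALC minus suspension, with its 95% confidence interval from limma over 3 arrays per group, in blue for lower, red for higher and grey for those that did not pass. The 6 cytosolic enzymes drawn as diamonds, which are not in the list of ATF4 targets, all lie below 0, from −0.95 to −0.19.

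Cytosolic enzymes were also split by a list, from general knowledge, of those whose genes ATF4 raises in amino acid shortage. The list was chosen with earlier results of these data known. The 6 measured enzymes outside the list, VARS1, FARSB, FARSA, HARS1, RARS1 and KARS1, all fell (median −0.54, from −0.95 to −0.19), and at least 5 of them did so whichever array was left out. Of the 11 measured enzymes on the list 2 fell (NARS1 and IARS1), 1 rose (AARS1) and 8 did not pass (median −0.10), and 2 of 11 is near the 23.7% of all genes that fell. The count on the list moved with single arrays, as did the share of all genes called lower. In limma with Benjamini-Hochberg adjustment it was 5 without MALC 1, beside 26.4% of all genes, and 1 without suspension 1. It was 0 without MALC 2, MALC 3, suspension 2 or suspension 3, where 1, 2, 2 and 2 enzymes lay below an unadjusted p of 0.05. Over all genes 15.3% were called lower without MALC 2. The shares without MALC 3 and without each suspension array are not given here. The drop in the count on the list thus cannot be told apart from fewer calls over all genes. Without both samples numbered 1, 7 enzymes on the list fell and 3 rose, beside 30.8% lower and 25.4% higher over all genes. With the sample number as a block the list gave 4 falls and 3 rises, beside 25.8% and 20.7% of all genes. The difference between the lists was not tested. The split by the complex showed no such contrast in medians: 3 of 5 measured enzymes of the complex fell (KARS1, RARS1 and IARS1) and 5 of 12 outside it, both with a median of −0.19.

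ATF4 itself, named with ASNS after their values were seen, had signals of 11603, 11021 and 10992 in MALC and 11664, 11412 and 11042 in suspension, which overlapped (log2 change −0.02, adjusted p = 0.698). ASNS, the asparagine synthetase gene and an ATF4 target, had 9768, 5132 and 5438 against 6771, 5575 and 5468 (0.13, SE 0.23, adjusted p = 0.666), with MALC 1 far above the other 5 arrays. Of 17 genes of the amino acid response list, all measured, 3 fell and 2 rose (median −0.04), shares below the 23.7% and 19% of all genes. With the block 5 fell and 4 rose, against 25.8% and 20.7% of all genes. DDIT3, a stress transcription factor downstream of ATF4, had 1956, 1311 and 1466 in MALC and 729.5, 804 and 744.2 in suspension and rose (log2 change 1.02, adjusted p = 0.00127). SHMT2, a mitochondrial enzyme of serine use, rose by 0.27 (adjusted p = 0.0245). The genes that fell were SLC7A5, ALDH18A1 and PYCR1. SLC7A5, a transporter of large neutral amino acids, had 2340, 1490 and 1538 against 3350, 2652 and 2629 (log2 change −0.70, adjusted p = 0.0167), a call lost without MALC 2 (0.0655), MALC 3 (0.0624) or suspension 1 (0.0546). ALDH18A1 and PYCR1, enzymes of proline synthesis, fell by 0.58 and 0.35 (adjusted p = 0.000915 and 0.0105). Without MALC 1, 9 of the 17 genes fell in place of 3, beside 26.4% of all genes, and 1 gene in place of 2 rose without MALC 3, suspension 2 or suspension 3. The shares of all genes called higher in the fits with 1 rise are not given here.

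Many cytosolic synthetases were highest in the sample numbered 1 of both groups. This held for 14 of 17 cytosolic and 6 of 15 mitochondrial enzymes, beside 26.8% of all genes tested, and FARSA, HARS1 and IARS1 were the cytosolic exceptions. The median excess of sample 1 over the mean of samples 2 and 3 was 0.31 on the log2 scale in MALC and 0.13 in suspension for cytosolic enzymes, and 0.02 and 0.09 for mitochondrial ones. In WARS1 it was 0.54 and 0.55, more than the WARS1 difference between the groups of 0.19, and in SARS1 0.49 and 0.34. AARS1 exceeded samples 2 and 3 by 0.33 and 0.45 and VARS1 by 0.42 and 0.52. MALC 1 lay nearer to the suspension arrays than MALC 2 and 3 did, and the part of this in the counts was not tested. The labels do not say what the number marks. On the ATF4 list 10 of 11 measured enzymes were highest in both samples numbered 1 (median excess 0.33 and 0.17), as were 12 of 17 genes of the amino acid response (0.45 and 0.11). Other groups shared this, with 56 of 75 mitochondrial ribosomal proteins highest in both (0.15 and 0.14). So were 7 of 11 genes of transfer RNA processing, export and editing and 6 of 11 mitochondrial translation factors and charging helpers. For cytosolic ribosomal proteins the count was 0 of 52, and for cytosolic elongation factors 0 of 3. When both samples numbered 1 were dropped, which was decided after the data were seen and keeps the nearly alike samples 2 and 3, 13 of 17 cytosolic enzymes fell and 3 rose, while 30.8% of all genes were called lower and 25.4% higher in that fit.

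**Figure D3:**
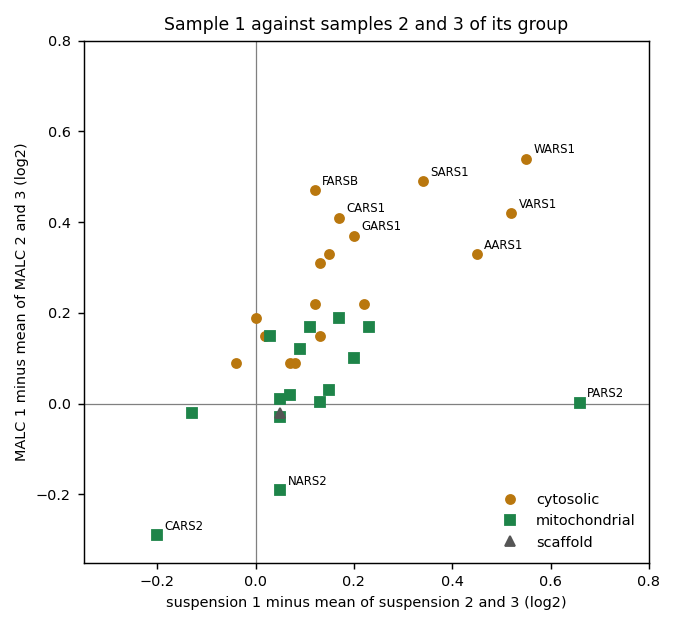
Each point is 1 member, with the log2 excess of suspension 1 over the mean of suspension 2 and 3 on the horizontal axis and that of MALC 1 over MALC 2 and 3 on the vertical axis. Cytosolic enzymes reach up to 0.55 and 0.54 (WARS1), while CARS2 lies below 0 on both axes (−0.20 and −0.29) and PARS2 stands out in suspension alone (0.66).

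Among mitochondrial enzymes MARS2, which charges methionine, fell most. Its signal was 339.7, 330 and 264.7 in MALC and 593, 522 and 530.6 in suspension, with a wide gap between the groups (311.5 ± 40.8 and 548.5 ± 38.7, SD, n = 3 each; 1.73-fold lower, log2 change −0.79, SE 0.11, adjusted p = 0.00117). LARS2, the leucine enzyme, had 824.4, 772.2 and 691.8 against 1275, 1208 and 1157, a 1.58-fold fall (−0.66, SE 0.08, adjusted p = 0.000998). YARS2, the tyrosine enzyme, had 1989, 2001 and 1941 against 2687, 2601 and 2576 (1.32-fold lower, −0.40, SE 0.06, adjusted p = 0.00126). The YARS2 arrays of each group lay within a narrow range.

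CARS2, the cysteine enzyme, had 364.7, 464.9 and 437.4 in MALC and 507, 604.1 and 566.1 in suspension (1.32-fold lower, log2 change −0.40, SE 0.11, adjusted p = 0.0212). Sample 1 was the lowest of its group in both, and the call was lost without suspension 2 (adjusted p = 0.0761) or suspension 3 (0.0657). VARS2, the valine enzyme, had 894.7, 815.4 and 832.2 against 1134, 1080 and 1043 (1.28-fold lower, −0.35, SE 0.07, adjusted p = 0.00596). SARS2, the serine enzyme, had 273.3, 244.2 and 246.1 against 331.6, 340.4 and 307.6 (1.27-fold lower, −0.34, SE 0.07, adjusted p = 0.00802).

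The remaining mitochondrial falls were those of AARS2 and IARS2, for alanine and isoleucine. AARS2 had 395, 425.4 and 364.5 in MALC and 522.9, 484.6 and 469.8 in suspension (1.24-fold lower, log2 change −0.31, SE 0.08, adjusted p = 0.0181), a call lost without MALC 3 (adjusted p = 0.0645) or suspension 2 (0.052). IARS2 had 4278, 3834 and 3755 against 5388, 4588 and 4585 (1.22-fold lower, −0.29, SE 0.08, adjusted p = 0.025), a call lost without MALC 2 (0.0915) or MALC 3 (0.0853). The calls of MARS2, LARS2, YARS2, VARS2 and SARS2 held in every alternative in which each gene was measured.

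WARS2, the mitochondrial tryptophan enzyme, had 486.6, 486.3 and 466.9 in MALC and 357.3, 341.5 and 299.6 in suspension. It rose 1.43-fold (479.9 ± 11.3 and 332.8 ± 29.8, SD, n = 3 each; log2 change 0.51, SE 0.08, adjusted p = 0.00209). A dimmer WARS2 probe set did not show the rise: it read 162.9, 148.3 and 157.2 in MALC and 162.5, 169.1 and 150.6 in suspension (change −0.04, adjusted p = 0.692). PARS2, the proline enzyme, had 188.3, 191.4 and 184.7 in MALC and 180, 112.2 and 103.9 in suspension (1.41-fold higher, log2 change 0.50, SE 0.17, adjusted p = 0.0472). Suspension 1 lay close to the MALC arrays, so the same-numbered differences of PARS2 were 0.06, 0.69 and 0.74. The PARS2 call was lost without MALC 1 (adjusted p = 0.076), MALC 2 (0.122), MALC 3 (0.102), suspension 2 (0.134) or suspension 3 (0.138).

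The groups overlapped for the 5 mitochondrial enzymes that did not pass. FARS2, the phenylalanine enzyme, had 366.2, 418.3 and 331.6 in MALC and 407.9, 451.2 and 447.2 in suspension (log2 change −0.22, SE 0.10, adjusted p = 0.095), and it passed without MALC 2 (−0.31, adjusted p = 0.0461). It also passed as lower with quantile normalization (adjusted p = 0.0361) and with the mean of its probe sets (0.0366). NARS2, the asparagine enzyme, had 2453, 2839 and 2761 against 2466, 2329 and 2421 (0.15, SE 0.07, adjusted p = 0.119), and it passed as higher without MALC 1 (0.22, adjusted p = 0.013). NARS2 passed as higher with quantile normalization (adjusted p = 0.0466) and array weights (0.000947) too. RARS2, the arginine enzyme, read 1406, 1304 and 1325 in MALC and 1596, 1402 and 1379 in suspension. EARS2, the glutamate enzyme, read 456, 447.5 and 450.9 against 486.4, 490.3 and 435.3. RARS2, EARS2 and HARS2, the histidine enzyme, had changes of −0.11, −0.06 and 0.04, with 95% confidence intervals from −0.30 to 0.07, from −0.22 to 0.11 and from −0.13 to 0.21.

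Changes of the cytosolic and the mitochondrial enzyme of an amino acid were set side by side in 13 pairs, with FARS2 set against each of FARSA and FARSB. EPRS1, the fused enzyme for glutamate and proline, was left out of the pairs, although EARS2 and PARS2 were measured. It had a change of −0.15 and did not pass, beside −0.06 for EARS2, which did not pass, and 0.50 for PARS2, which rose. Over all genes tested 23.7% were called lower. Both enzymes fell in 2 pairs, isoleucine (IARS1 −0.22 and IARS2 −0.29) and valine (VARS1 −0.95 and VARS2 −0.35). The cytosolic enzyme alone passed as lower in 5 pairs: both phenylalanine pairs, which hold the subunits of 1 enzyme, HARS1, NARS1 and RARS1. The mitochondrial enzyme alone passed as lower in 5 others, namely LARS2, YARS2, SARS2, CARS2 and AARS2. For alanine the calls were opposite, with AARS1 higher and AARS2 lower, and the tryptophan pair WARS1 and WARS2 had changes of 0.19 and 0.51. The mitochondrial change was below the cytosolic in 6 of the 13 pairs. The differences within pairs were not tested.

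**Figure D4:**
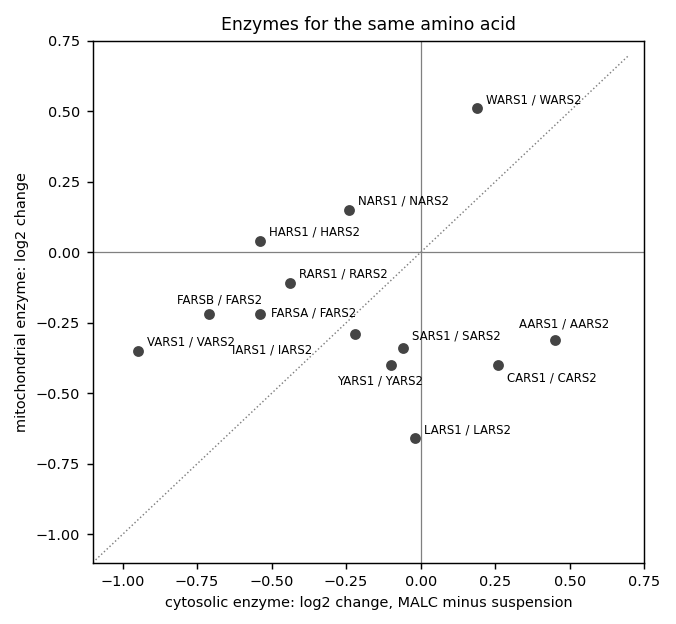
Each point is 1 pair of enzymes for the same amino acid, with the log2 change of the cytosolic enzyme on the horizontal and that of the mitochondrial enzyme on the vertical axis; the dotted line marks equal change. In 6 of 13 pairs the point lies below the line, LARS2 (−0.66) beside LARS1 (−0.02) among them. EPRS1, the fused enzyme for glutamate and proline, is not drawn.

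Promoter windows of 250 bases before a start, from RefSeq (GRCh38.p14), were held for 28 of the 33 measured members in 39 windows, and VARS1, YARS1, LARS1, VARS2 and AARS2 had no entry. They were searched on both strands for TGATGNAA, a core of the element bound by ATF4 with a C/EBP partner, for CACGTG, the E-box bound by MYC and related factors, and for GCGCANGCG, a core of the site of NRF1, a regulator of genes of mitochondrial proteins. The first was found in 4 of 28 members (AARS1, GARS1, IARS1 and YARS2) and in 2.55% of the 10941 tested genes with windows. The second was found in 3 members (IARS1, MARS2 and EARS2) and in 10.7% of tested genes, and the last in 4 members (MARS2, IARS2, SARS1 and TARS1) and in 13.9%. Over all 35116 windows of that length the shares were 3.14%, 6.34% and 6.56%. CACGTG reads alike on both strands, and none of the motifs overlapped another except that GCGCANGCG matched both strands at 1 place in MARS2. A match is a run of letters and no measured binding. The windows of the members that passed the test and held a match are shown around it, on the gene's strand, to let the matches be seen beside the changes, with the matched letters in capitals:
MARS2 (fell by 0.79), chr2:197705211-197705368, plus strand: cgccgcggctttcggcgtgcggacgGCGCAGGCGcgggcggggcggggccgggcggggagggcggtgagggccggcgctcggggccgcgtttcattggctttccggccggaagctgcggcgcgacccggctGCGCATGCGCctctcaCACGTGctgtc
AARS1 (rose by 0.45), chr16:70289661-70289718, minus strand: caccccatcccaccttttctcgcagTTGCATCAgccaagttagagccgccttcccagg
YARS2 (fell by 0.40), chr12:32756062-32756119, minus strand: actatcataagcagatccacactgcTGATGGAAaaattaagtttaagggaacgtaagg
IARS2 (fell by 0.29), chr1:220094092-220094131, plus strand: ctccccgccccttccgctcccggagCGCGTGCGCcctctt
IARS1 (fell by 0.22), chr9:92293698-92293908, minus strand: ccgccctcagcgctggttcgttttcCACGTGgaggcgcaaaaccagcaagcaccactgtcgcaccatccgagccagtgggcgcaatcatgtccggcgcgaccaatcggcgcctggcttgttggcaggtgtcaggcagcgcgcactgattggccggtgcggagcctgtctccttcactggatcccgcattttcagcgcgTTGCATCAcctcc

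MARS2 held both the E-box, 5 bases before its start, and the NRF1 core. The match to TGATGNAA ended 179 bases before the start in AARS1, 189 in YARS2 and 5 in IARS1, and AARS1 and IARS1 held it in the same letters, on the strand opposite to the gene. Of these genes with the same match, AARS1 rose while YARS2 and IARS1 fell. GARS1 did not pass (limma, adjusted p = 0.108), but it passed as lower with the block, with array weights, without MALC 1 and without both samples numbered 1.

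The genes of the 2 histidine enzymes lie head to head, and their transcripts did not move alike. In RefSeq HARS1 starts on the minus strand at chr5:140691370 and HARS2 on the plus strand at chr5:140691455, with 84 bases between. HARS1 fell by 0.54 on the log2 scale, whereas HARS2 read 518.9, 564.4 and 499.5 in MALC and 525.8, 515.4 and 497 in suspension, which overlapped. The stretch between the starts (chr5:140691371-140691454), shown on the plus strand because it is shared by both genes, held none of the 3 motifs:
HARS1 to HARS2: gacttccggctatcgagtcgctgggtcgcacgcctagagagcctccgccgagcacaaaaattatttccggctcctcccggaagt

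AIMP1, a scaffold protein of the cytosolic complex, was the measured member of its kind, and its probe sets disagreed. The brightest read 4115, 4233 and 4089 in MALC and 4197, 4003 and 4123 in suspension (log2 change 0.01, 95% confidence interval from −0.10 to 0.13, adjusted p = 0.845). A second probe set read 1179, 892.5 and 843.7 against 1539, 1426 and 1499, with no overlap (971.8 ± 181 and 1488 ± 57.2, SD, n = 3 each; change −0.62, SE 0.12, adjusted p = 0.00606 over all probe sets). The remaining probe set gave −0.15 and did not pass (adjusted p = 0.396).

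Of 19 members with more than 1 probe set above the filter, 8 had probe sets that differed in call, and 11 had the same call throughout. The 8 were AIMP1, VARS1, WARS2, CARS1, CARS2, EARS2, RARS2 and TARS1. In TARS1 a dim probe set rose, at 173.3, 157.2 and 171.9 in MALC and 118.4, 77.55 and 88.38 in suspension (log2 change 0.74, SE 0.13, adjusted p = 0.00326), while the bright one gave −0.15. In RARS2 the dimmest of 4 rose, at 70.03, 86.65 and 85.04 against 49.33, 56.86 and 52.04 (0.49, adjusted p = 0.00319), and the others gave −0.11, −0.01 and 0.10. The suspension mean of this dimmest probe set was 52.74, below the filter signal of 53.4, so it was kept only through its MALC arrays. Its rise is therefore not read as a change, and RARS2 is among the 8 through this probe set alone. EARS2 had 2 probe sets that fell and 2 that did not pass. The first read 374.2, 347 and 325.1 in MALC and 442.4, 400.9 and 403.1 in suspension (−0.24, adjusted p = 0.0465), and the other 355.6, 346.6 and 313.8 against 442.4, 415 and 393.3 (−0.29, adjusted p = 0.0245). With the mean of its probe sets EARS2 passed as lower (−0.19, adjusted p = 0.0302). The dimmest CARS1 probe set read 75.53, 72.39 and 73.92 against 104.2, 90.51 and 90.53 and fell by 0.30 (adjusted p = 0.00928), where the brightest gave 0.26. A dimmer CARS2 probe set read 144, 162.5 and 171.4 against 179, 156.9 and 159.7 (−0.05, adjusted p = 0.667). Both probe sets of FARSA fell, by 0.56 and 0.54, as did those of LARS2, by 0.55 and 0.66. Which transcripts each probe set reads was not examined here.

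**Figure D5:**
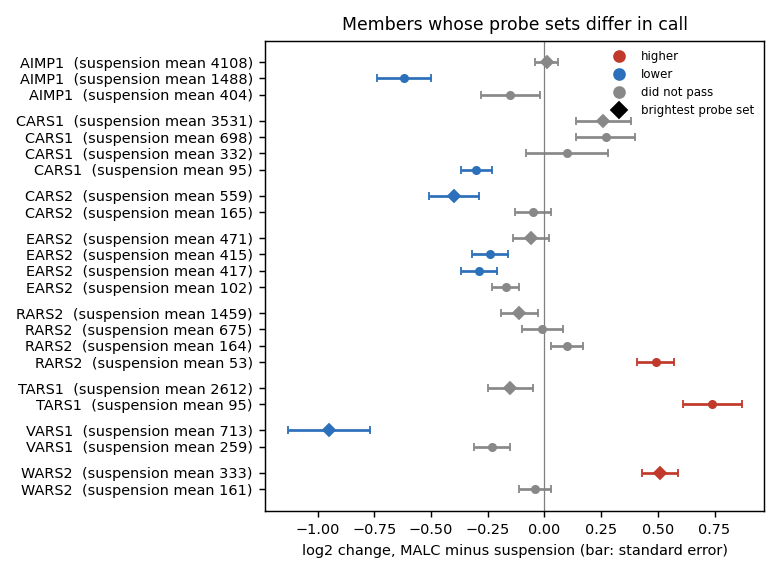
Points give the log2 change of every probe set above the filter for the 8 members whose probe sets differ in call, with bars of 1 standard error, and the diamond marks the brightest, which stands for the gene elsewhere. For AIMP1 the brightest lies at 0.01 and the second at −0.62, and for TARS1 the dim probe set lies at 0.74. The RARS2 probe set drawn as higher passed the filter only through its MALC arrays.

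Other genes of charging and translation were taken from lists for context. Over all genes tested 23.7% fell and 19% rose. Of 11 measured mitochondrial translation factors and charging helpers 5 fell and 2 rose (median −0.18), and 1 rose without MALC 2, MALC 3 or suspension 3. The shares of all genes called higher in the fits with 1 rise are not given here. GFM1, a mitochondrial elongation factor, had 1773, 1319 and 1229 in MALC and 2973, 2703 and 2739 in suspension (log2 change −0.97, adjusted p = 0.00122). MTFMT, which formylates the initiator methionyl transfer RNA charged by MARS2, had 390.3, 329 and 299.8 against 627.4, 501 and 490 (−0.64, adjusted p = 0.00539). TSFM, the exchange factor of the elongation factor TUFM, had 1075, 973.4 and 977.3 against 1624, 1410 and 1474 (−0.57, adjusted p = 0.00141), and TUFM fell by 0.56. For these genes, as for MARS2, every MALC array was below every suspension array. The rises were those of MTIF3, an initiation factor, at 1569, 2076 and 2122 against 1126, 1261 and 1309 (0.62, adjusted p = 0.00583), and GATC, a subunit of the enzyme that makes mitochondrial glutaminyl transfer RNA (0.30, adjusted p = 0.024). QRSL1 and GATB, the other subunits of that enzyme, had changes of −0.17 and −0.18 and did not pass (limma, adjusted p = 0.0593 and 0.0599). Beside the 8 of 15 mitochondrial synthetases that fell (median −0.29), 59 of 75 mitochondrial ribosomal proteins fell (median −0.44).

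Of 11 measured genes of transfer RNA processing, export and editing 7 fell (median −0.48), beside 23.7% of all genes. ELAC2, which trims the 3′ end of transfer RNA, had 515.6, 468.6 and 421.1 in MALC and 739.1, 761.3 and 786.2 in suspension (log2 change −0.69, adjusted p = 0.000929). TSEN54 and CLP1, which take part in transfer RNA splicing, fell by 0.59 and 0.56 (adjusted p = 0.00816 and 0.00118), and TSEN54 missed the threshold with the mean of its probe sets (0.0565). RTCB, the ligase of that pathway, fell by 0.53 (adjusted p = 0.0126), a call lost without MALC 2 (0.0552). Of 3 measured cytosolic elongation factors EEF1D, an exchange factor that binds valyl-tRNA synthetase, rose, with 10129, 10359 and 10574 against 9233, 9331 and 9091 (0.17, adjusted p = 0.00959). With the mean of its probe sets EEF1D did not pass (adjusted p = 0.305). Of 52 cytosolic ribosomal proteins 21 rose and 1 fell (median 0.07), with 19% and 23.7% over all genes, beside the 8 falls and 1 rise of the 17 cytosolic synthetases.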

How the data were processed

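The authors deposited a linear intensity for each of 54675 probe sets on 6 arrays. MAS5 is the tool in the submitters' processing notes; its version, its role and the normalization are not given in the sources used here. RNA was extracted with Trizol, per the labels' protocols. Probe sets were named through the platform annotation, with symbols updated by Entrez identifier with RefSeq (GRCh38.p14): of 54613 that are not controls, 41091 named 1 gene, 1801 several and 11721 none.

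Intensities were set to log2(value + 16), which understates changes of dim genes. Probe sets at or above the 40th percentile of the mean (32768, a signal of 53.4) were kept, and the brightest stood for its gene. No further normalization was applied, so any scaling between arrays before deposit would hide a shift of all transcripts. Groups were taken from the titles, and limma 3.58.1 (R 4.3.3) gave their comparison (lmFit, eBayes with trend, two-sided, group only), adjusted by Benjamini-Hochberg over 13765 genes at 0.05. Means ± SD are of linear intensities. Single probe sets were tested in 1 fit over the 32768. The fit was tested on simulated data.

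After subtraction of the group means, arrays correlated at 0.28, 0.18 and 0.19 between samples of the same number, and at −0.24 to 0.2 between samples of different number (0.15 and 0.2 between samples 2 and 3). The labels do not say what the number marks. A fit with the number as a block was an alternative, with 17 others planned and 1 added later.

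The members, lists and tests were chosen with earlier results of these data known. Values in every array are given for each measured member, on the probe set that stands for it. From other lists up to 4 genes with the largest change past the threshold were named, and all others were named after their values were seen. Promoter windows were printed for members past the threshold that held a searched motif.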

Additional observations from a re-analysis of the deposited data

How the results depend on the processing

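Of the 19 members that passed, 10 kept their call and direction in every alternative in which they were measured (VARS1, FARSB, FARSA, HARS1, RARS1, MARS2, LARS2, YARS2, VARS2 and SARS2), 8 lost the call in at least 1 (NARS1, IARS1, KARS1, AARS1, CARS2, AARS2, IARS2 and PARS2) and WARS2 reversed to −0.04 without the probe sets marked as shared between transcripts or genes (_s_at and _x_at). Without those probe sets AIMP1 reversed to −0.62 and counted as 1 scaffold fall. Cytosolic falls numbered 5 among 11 measured enzymes, in place of 8 among 17. VARS1, FARSB and IARS1 were not measured there, and the other cytosolic falls kept their calls. Mitochondrial rises numbered 1 in place of 2. Mitochondrial rises also numbered 1 with no filter and without trend. Outside leaving out arrays, the call was lost for NARS1 with quantile normalization (adjusted p = 0.0882) and without trend (0.0506), for IARS1 with quantile normalization (0.0537), for CARS2 with the mean of probe sets (0.0515), and for PARS2 with no filter (0.0563), quantile normalization (0.0725) and without trend (0.0511). GARS1, EPRS1, TARS1, YARS1, SARS1, WARS1, CARS1, FARS2, EARS2 and NARS2, which had not passed, gained a call in at least 1 alternative.

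The other reversals were of changes that had not passed. With quantile normalization LARS1 was 0.04, HARS2 −0.01 and ATF4 0.06, and with the mean of probe sets TARS1 was 0.30, SARS1 0.09, RARS2 0.12 and AIMP1 −0.25. ASNS was −0.06 with array weights and −0.06 without both samples numbered 1. Leaving out 1 array at a time gave ranges of −0.16 to 0.30 for ASNS, −0.23 to 0.05 for SARS1, −0.01 to 0.08 for HARS2, −0.01 to 0.03 for AIMP1 and −0.05 to 0.001 for LARS1.

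When every probe set was tested singly, 13649 of 32768 probe sets passed (6701 lower and 6948 higher). The larger number reflects the unit, since the share was 41.7%, against 42.7% of genes. The balance of direction differed, with 20.4% of probe sets lower and 21.2% higher, against 23.7% and 19% of genes. The shares over all genes given above thus hold for the brightest probe set of each named gene. With array weights 8880 genes passed (5230 lower), in place of 5877 (3266 lower). Leaving out 1 array gave 2113 to 3632 lower, the lowest without MALC 2. It gave 5 to 11 cytosolic falls and 0 to 1 cytosolic rises, the rise being kept in the fit without suspension 1 alone (at an unadjusted p under 0.05 limma gave 1, 2, 1, 0 and 0 rises without MALC 1, 2 and 3 and suspension 2 and 3), and 1 to 2 mitochondrial rises, with 1 without MALC 2, MALC 3, suspension 2 or suspension 3. With array weights, where 8880 genes passed in place of 5877, cytosolic falls numbered 12 and rises 2. Without both samples numbered 1, cytosolic falls numbered 13 and rises 3. The median of the mitochondrial enzymes was −0.22 with the mean of probe sets and −0.21 with array weights, in place of −0.29. With the replicate block cytosolic rises numbered 3 and falls 10, and the block changed no member's call other than those of GARS1, EPRS1, WARS1 and CARS1. The cause of the other shifts was not tested. Samples 2 and 3 of a group were nearly alike, so a fit without sample 1 rests on a small spread.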
